A study of Mus musculus with 12 samples.

Results

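The genes described here move calcium across the membranes of the SMC. The set holds 10 of the 52636 genes in the deposited count table and was chosen by symbol, through the Ensembl identifier of each row: the voltage-gated channel genes *Cacna1c*, *Cacna1h*, and *Cacnb2*, the store release channels *Ryr2* and *Itpr1*, the store pump *Atp2a2* with its inhibitor *Pln*, the plasma membrane pump *Atp2b1*, and the store-operated entry genes *Stim1* and *Orai1*. All 10 were measured in each library, and all 10 passed the filter on low counts.

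Bulk RNA-seq was performed on GFP-positive SMCs sorted from the aortas of male C57BL/6J mice at 12 weeks of age. Separate libraries were made of the ascending aorta with the arch and of the descending thoracic aorta. The replicate numbers are read here as 3 GFPiSMC and 3 Tgfbr1/2iSMCKO animals, which the labels do not state. GFPiSMC mice carry Myh11-CreERT2, a tamoxifen-inducible Cre driven by a smooth muscle promoter, and the mT/mG reporter, which switches to GFP after recombination. Tgfbr1/2iSMCKO mice carry the same alleles with floxed *Tgfbr1* and *Tgfbr2* in addition, and since the controls have no floxed allele, the mouse line and the deletion cannot be told apart. Tamoxifen was given to both genotypes for 5 days. By the methods the dose was 2 mg/d from an age of 11 weeks, with 1 mg/d for some mice induced at 4 weeks instead. The labels do not assign either to a library. The paper dates the profiling of these 12-week-old mice to shortly after disruption, which is the schedule from 11 weeks.

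Contraction of arterial SMCs follows the calcium concentration of the cytosol. Calcium enters through voltage-gated channels at the plasma membrane, is released from the sarcoplasmic reticulum through ryanodine and IP3 receptors, and is returned to the store by SERCA pumps, which phospholamban restrains, or expelled by plasma membrane pumps. When the store is empty, STIM proteins in its membrane open ORAI channels at the surface.

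Promoter windows of 250 bases upstream of the transcription start were read from RefSeq (GRCm38.p6) for 7 of the 10 genes, with 11 windows in all. *Cacna1h*, *Itpr1*, and *Atp2a2* had no entry. The letters of 3 motifs were searched on both strands: CAGAC, the short sequence that SMAD proteins of the TGF-β pathway recognize, the CArG box, the element bound by serum response factor in SMC promoters, and GGGCGG, the GC box. These matches may overlap matches of another motif. CAGAC occurred in 42.2%, the CArG box in 1.5%, and GGGCGG in 32.7% of the 32851 promoter windows of the same length. Among the members CAGAC was found only in windows of *Cacna1c*, and the CArG box was found in none of the 11 windows. The windows of *Pln* and *Stim1* are shown because these genes varied most between libraries, and a window of *Cacna1c* because it holds CAGAC at 2 positions. Capitals mark CAGAC in *Cacna1c* and GGGCGG in *Stim1*, on either strand.
Cacna1c (chr6:119196410-119196659, minus strand): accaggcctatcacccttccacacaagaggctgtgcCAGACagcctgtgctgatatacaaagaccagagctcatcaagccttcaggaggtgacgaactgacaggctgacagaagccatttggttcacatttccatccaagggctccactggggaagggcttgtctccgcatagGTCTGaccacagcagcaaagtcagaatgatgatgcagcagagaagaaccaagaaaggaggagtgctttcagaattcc
Pln (chr10:53337436-53337685, plus strand): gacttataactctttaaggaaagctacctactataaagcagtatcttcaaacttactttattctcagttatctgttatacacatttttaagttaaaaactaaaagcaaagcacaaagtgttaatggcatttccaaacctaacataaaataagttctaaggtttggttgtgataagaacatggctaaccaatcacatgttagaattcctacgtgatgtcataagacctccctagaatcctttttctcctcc
Stim1 (chr7:102267569-102267818, plus strand): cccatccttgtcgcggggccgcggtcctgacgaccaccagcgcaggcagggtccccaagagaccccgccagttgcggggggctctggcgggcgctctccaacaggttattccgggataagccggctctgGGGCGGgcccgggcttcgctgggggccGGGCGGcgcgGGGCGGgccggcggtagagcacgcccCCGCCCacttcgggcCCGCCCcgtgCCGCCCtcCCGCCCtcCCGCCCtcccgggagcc
GC content was 51.6% in the *Cacna1c* window, 32.8% in that of *Pln*, and 78.4% in that of *Stim1*, where GGGCGG occurred at 8 positions. In the longest annotated transcripts, GC content was 38.6% for *Pln* and 54.5% for *Stim1*, within a range of 38.6% to 60.0% over the members. A match is a string of letters and says nothing of binding.

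Total counts were 20467027 to 31392396 per library, from 9208 to 20000 sorted cells. *Tgfbr2* measured 88.9 to 128 CPM (counts scaled to the library total with TMM factors) in GFPiSMC and 68.2 to 102 CPM in Tgfbr1/2iSMCKO libraries, and *Tgfbr1* overlapped between genotypes, with 196 to 292 CPM against 198 to 295 CPM. These counts cover the whole gene and do not separate the floxed exons, so they do not test the deletion. The 8 smooth muscle markers summed to 38750 to 53500 CPM. The 6 fibroblast markers summed to 112 to 247 CPM in the ascending/arch and 27.2 to 70.0 CPM in the descending libraries, the 6 endothelial markers to 59.9 to 107 CPM, and the 6 macrophage markers to 5.47 to 17.7 CPM. Of the 8 cardiomyocyte markers, *Myl7* was at 0 in all libraries, and their sum was 27.6 to 48.0 CPM in GFPiSMC and 57.1 to 119 CPM in Tgfbr1/2iSMCKO ascending/arch libraries, and 26.6 to 33.4 CPM and at most 33.6 CPM in the descending libraries. *Tnnt2*, 1 of these 8, was at 5.98 to 105 CPM. A GC score was computed for each library as the median log2 deviation of the 10% of genes highest in GC minus that of the lowest 10%. It was highest in 4 libraries, at 0.257 to 0.512, namely GFPiSMC descending replicates 1 and 2 and both libraries of Tgfbr1/2iSMCKO replicate 3, and −0.608 to 0.059 in the other 8. These 4 libraries also had the fewest sorted cells, 9208 to 12000, against 12526 to 20000 in the other 8. The part of cell number in the GC score was not tested. Libraries numbered alike within a genotype appear to come from the same animal, so they are not independent.

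*Atp2a2*, which encodes the SERCA2 pump, was by far the most abundant member per length of transcript. On the scale of CPM per kilobase of merged exons, its level was 105 ± 8.60 (SD over 12 libraries), 7.15 times that of *Itpr1*, the IP3 receptor, at 14.6 ± 2.11. *Pln* (phospholamban) followed at 4.89 ± 5.44 and *Atp2b1* (the PMCA1 pump) at 4.79 ± 1.01, and *Pln* was the higher of this pair in 5 of 12 libraries. *Orai1* at 1.98 ± 0.724, *Cacna1c* at 1.77 ± 0.312, *Ryr2* at 1.68 ± 0.537, *Stim1* at 1.21 ± 1.14, and *Cacnb2* at 1.05 ± 0.272 CPM per kilobase formed a group in which neighbours did not differ beyond their spread. *Cacna1h*, the pore of a T-type channel, was lowest at 0.201 ± 0.0560 CPM per kilobase, from 33 to 81 counts per library. With the longest transcript in place of merged exons, *Atp2a2*, *Itpr1*, and *Cacna1h* held the same ranks, while *Stim1* moved to rank 5 and *Orai1* to rank 9.

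Members also differed in how far replicates spread. The SD of log2 CPM within groups was 0.0746 for *Atp2a2*, and 0.876% of genes at a like level had a lower SD. For *Itpr1* it was 0.0968, with 5.59% of like genes below. At the other end, the SD was 1.31 for *Pln* and 1.11 for *Stim1*, and 97.4% and 96.1% of genes at their levels spread less. The remaining members lay between 0.244 (*Cacna1c*) and 0.445 (*Orai1*).

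**Figure D1:**
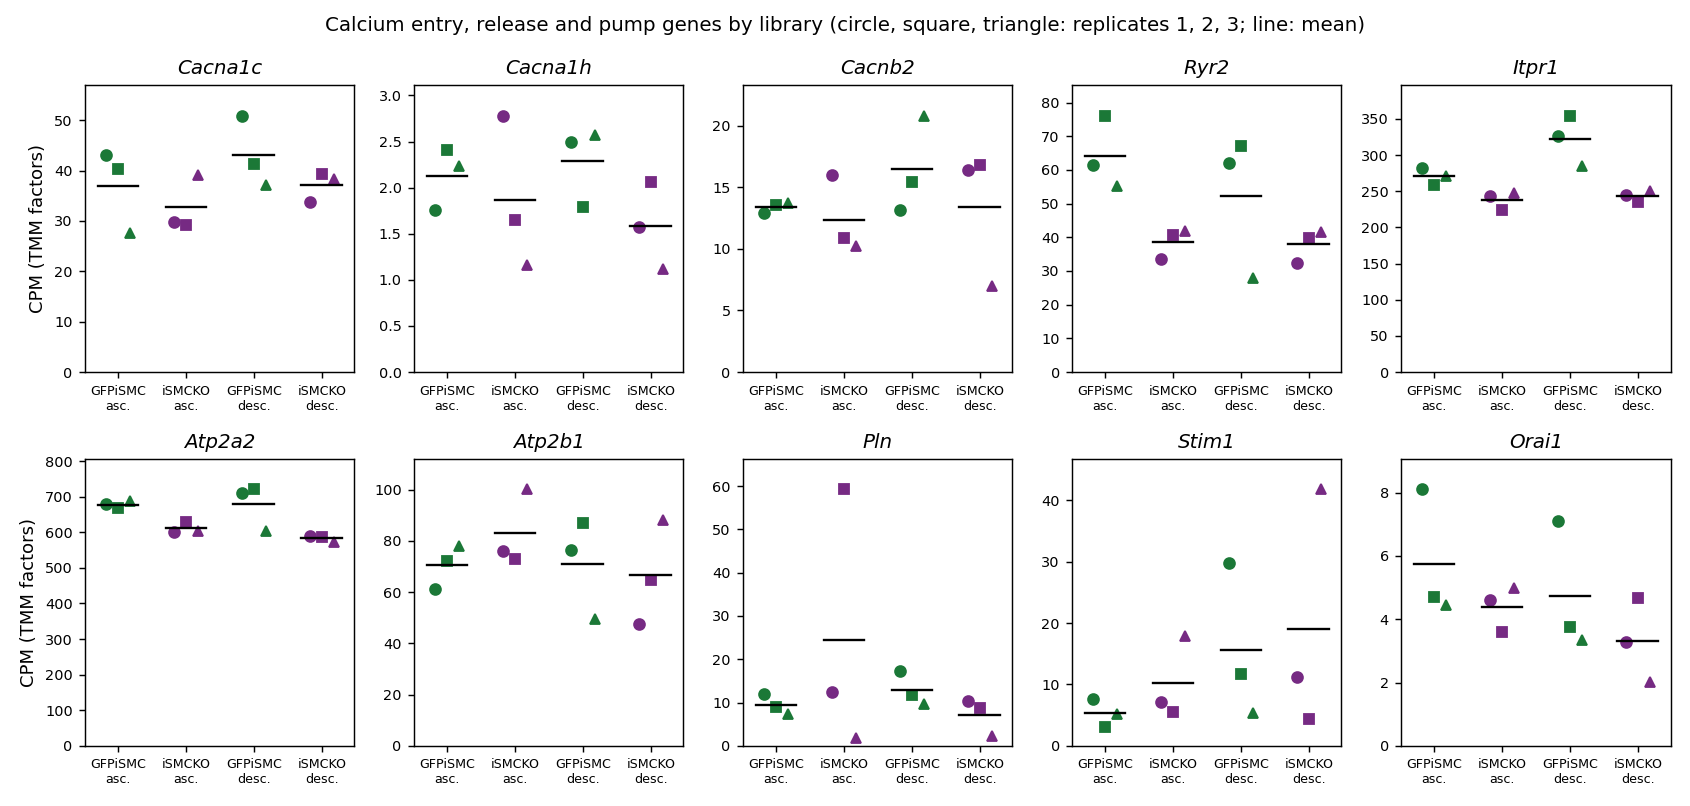
CPM with TMM factors (vertical axes, each from 0) of the 10 genes in the 12 libraries, by genotype (green GFPiSMC, purple Tgfbr1/2iSMCKO) and segment, with symbols for replicate numbers and lines for means of 3 libraries. With these factors, though not by library total alone, *Itpr1* is lower in every Tgfbr1/2iSMCKO library than in any GFPiSMC library. *Pln* at 59.2 CPM has a library far above the rest. *Stim1* is highest at 41.8 CPM in a Tgfbr1/2iSMCKO library, followed by 29.8 CPM in a GFPiSMC library.

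Tgfbr1/2iSMCKO was compared with GFPiSMC over both segments, to ask how receptor deletion in SMCs relates to these transcripts. No member passed an adjusted p of 0.05 in edgeR, where 5.03% of the 22320 genes tested passed. Of the 10, 3 had an unadjusted p under 0.05, all with a lower estimate in Tgfbr1/2iSMCKO: *Ryr2*, *Itpr1*, and *Atp2a2*, which release calcium from the store or return it. Of all genes tested, 16.1% had an unadjusted p under 0.05. DESeq2 passed 1 member, *Itpr1*, where it passed 11.3% of the 17946 genes to which it gave an adjusted p. Estimates were lower in 7 members and higher in 3, with a median log2 fold change of −0.20 against 0.04 over all genes tested. With library size only, the same numbers lay below and above 0, and the medians were −0.08 and 0.16. In bulk RNA, fewer cells with a transcript and less transcript per cell cannot be told apart.

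**Figure D2:**
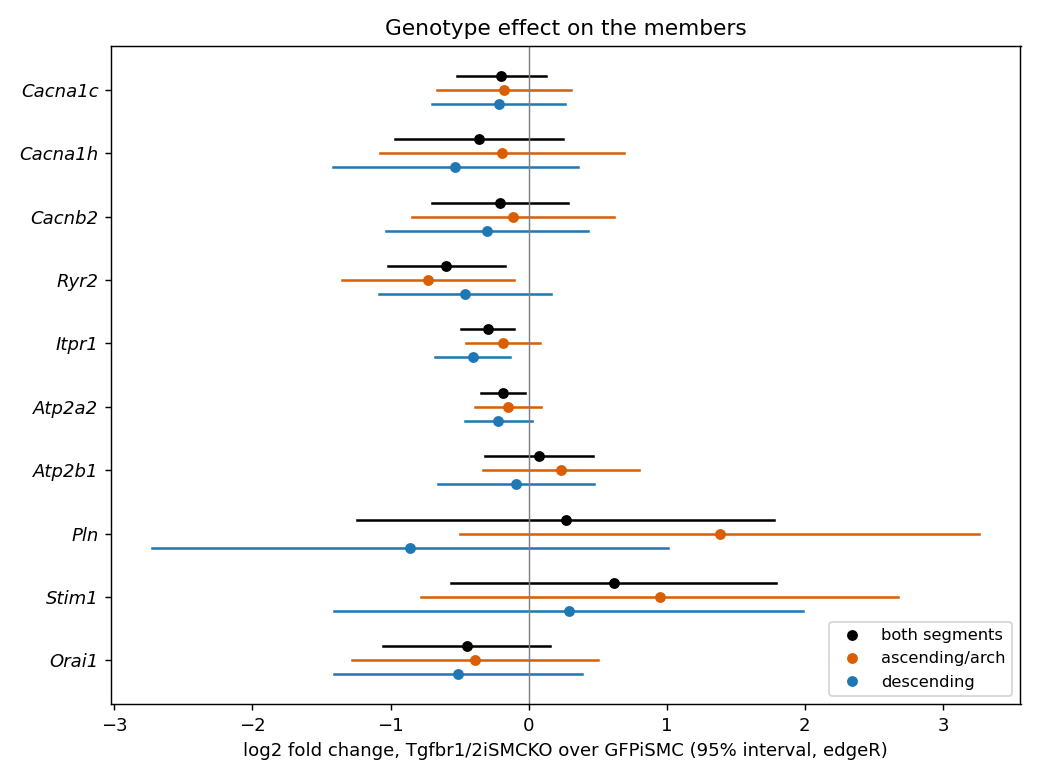
Log2 fold change of Tgfbr1/2iSMCKO over GFPiSMC (horizontal axis) with 95% intervals from edgeR for each gene, over both segments (black), in the ascending/arch (orange), and in the descending segment (blue). Over both segments the intervals of *Ryr2*, *Itpr1*, and *Atp2a2* lie below 0, and those of *Pln* and *Stim1* are the widest.

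*Itpr1* and *Ryr2* encode the release channels of the store. *Itpr1* measured 282, 259, and 272 CPM in the GFPiSMC ascending/arch libraries (replicates 1 to 3) and 243, 223, and 247 CPM in those of Tgfbr1/2iSMCKO. In the descending segment it measured 326, 354, and 284 CPM against 244, 235, and 249.8 CPM. Thus with TMM factors every Tgfbr1/2iSMCKO library was below every GFPiSMC library, where 2.89% of genes tested lay wholly lower over both segments. *Itpr1* was the only member of which this was true. By library total alone the genotypes overlapped in the ascending/arch. There *Itpr1* took 7091 of 26967221 counts in Tgfbr1/2iSMCKO replicate 1, a larger share than 7547 of 30078830 in GFPiSMC replicate 2. The log2 fold change was −0.30 ± 0.0890 (SE), or 0.815 of the control level (95% interval −0.49 to −0.10, edgeR adjusted p = 0.0823). The adjusted p passed in 3 of 16 alternatives, namely DESeq2 (0.0211), a filter of at least 50 mean counts, and the library GC score as a covariate (0.00393). Its highest value, 0.397 by edgeR, came with counts summed per animal, the fit in which each animal enters once. With library size only the estimate was −0.168 (adjusted p = 0.333, edgeR), and −0.085 in the ascending/arch. Within segments the estimate was −0.19 ± 0.125 in the ascending/arch (adjusted p = 0.655, edgeR) and −0.40 ± 0.125 in the descending segment (adjusted p = 0.180), and these did not differ detectably (−0.22 ± 0.176, interval −0.60 to 0.17). No sense-strand gene shares exons with *Itpr1*, though *Gm44101* and *Gm44040* overlap it on the opposite strand.

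*Ryr2* encodes the ryanodine receptor of the store membrane. It was at 61.3, 76.1, and 55.2 CPM in GFPiSMC and 33.7, 40.6, and 41.9 CPM in Tgfbr1/2iSMCKO ascending/arch libraries, with no overlap. In the descending segment the GFPiSMC values were 62.0, 67.1, and 27.9 CPM and the Tgfbr1/2iSMCKO values 32.5, 39.8, and 41.7 CPM. There, replicate 3 of GFPiSMC was the lowest of all 12 libraries and the other controls were above all Tgfbr1/2iSMCKO libraries. Over both segments the log2 fold change was −0.60 ± 0.198, or 0.662 of control (interval −1.02 to −0.17, edgeR adjusted p = 0.119). Without GFPiSMC replicate 3 it was −0.795 with an adjusted p of 0.0114, the only alternative of 16 in which *Ryr2* passed. In the ascending/arch the estimate was −0.73 ± 0.287 (edgeR adjusted p = 0.339) and in the descending segment −0.46 ± 0.286 (adjusted p = 0.673). The descending estimate was 0.35 when the 4 libraries of highest GC score were left out, which leaves GFPiSMC replicate 3 as the only control. The IP3 receptor exceeded the ryanodine receptor per kilobase by 5.35 to 16.0 times over the libraries, with a median of 8.96.

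*Atp2a2* returns calcium to the store. It measured 678, 668, and 687 CPM in GFPiSMC against 600.4, 629, and 603 CPM in Tgfbr1/2iSMCKO ascending/arch libraries, and 711, 720.3, and 604 CPM against 589, 586, and 574 CPM in the descending libraries. With TMM factors genotypes did not overlap within either segment, although the lowest descending control lay within the range of the ascending/arch Tgfbr1/2iSMCKO libraries. By library total alone the genotypes overlapped in both segments. In the descending segment Tgfbr1/2iSMCKO replicate 1 had 14221 of 22916050 counts, a larger share than 15028 of 25171378 in GFPiSMC replicate 3. Over both segments the difference was small, −0.18 ± 0.0740 on the log2 scale, or 0.880 of control (interval −0.34 to −0.02, edgeR adjusted p = 0.219). It passed in 1 of 16 alternatives, with the GC score as a covariate (adjusted p = 0.0338), and shrank to −0.06 with library size only (adjusted p = 0.759). Within the ascending/arch and with TMM factors, *Itpr1*, *Ryr2*, and *Atp2a2* were the 3 members with no overlap, all lower, where 10.1% of genes tested were wholly lower. Within the descending segment 2 members were wholly lower on this scale, *Itpr1* and *Atp2a2*, where 7.75% of genes were. *Gm43361* overlaps *Atp2a2* on the opposite strand, and strand use in counting is not given in the sources used here.

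*Pln*, the small protein that inhibits SERCA, spread more between replicates than between genotypes. The ascending/arch values were 11.9, 8.96, and 7.27 CPM in GFPiSMC and 12.4, 59.2, and 1.87 CPM in Tgfbr1/2iSMCKO. The descending values were 17.4, 11.6, and 9.72 CPM against 10.3, 8.74, and 2.36 CPM. The highest value was thus that of Tgfbr1/2iSMCKO replicate 2 in the ascending/arch, and the lowest values were both libraries of replicate 3. In the highest library *Tnnt2* was also at its highest (105 CPM), as was *Gm47644* (25.5 CPM), a transcript that shares exons with *Pln* on the opposite strand. The summed cardiomyocyte markers were highest there too (119 CPM), but *Tnnt2* is 1 of them and made up most of this sum. Of the other cardiomyocyte genes, *Myl7* was at 0 in all 12 libraries, *Nppa* was at 0 in this library, and *Myh6* was at 1.21 CPM in it. *Actn2* was at 2.48 CPM in it, 1.61 to 2.61 CPM over all Tgfbr1/2iSMCKO libraries, and 4.81 to 15.9 CPM in the controls. *Tnni3*, *Myl4*, and *Myl2* are in the sum but are not given singly here. The part of all these genes in the *Pln* value was not tested. *Cep85l*, which also overlaps *Pln* on the opposite strand, was at 18.6 to 37.3 CPM and did not peak there, with 32.3 CPM.

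The log2 fold change of *Pln* was 0.27 ± 0.701 over both segments (interval −1.24 to 1.78, edgeR adjusted p = 0.923), 1.38 ± 0.865 in the ascending/arch (adjusted p = 0.621), and −0.86 ± 0.859 in the descending segment (adjusted p = 0.869). The direction was not stable. Without Tgfbr1/2iSMCKO replicate 2 the estimates were −0.705 over both segments and −0.393 in the ascending/arch. With all animals kept, the estimate over both segments was −0.470 with limma-voom and −0.292 with the replicate block. As *Atp2a2* hardly varied, the ratio of *Atp2a2* to *Pln* per kilobase followed *Pln*, from 4.82 in the library with the *Pln* peak to 147 and 110 in the libraries of replicate 3, with 18.6 to 42.9 in the 6 control libraries.

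For the members of voltage-gated entry, *Cacna1c*, *Cacnb2*, and *Cacna1h*, no difference between genotypes was detected beyond the spread of replicates. *Cacna1c*, the pore subunit of the L-type channel, was at 43.1, 40.4, and 27.6 CPM in GFPiSMC and 29.9, 29.2, and 39.0 CPM in Tgfbr1/2iSMCKO ascending/arch libraries, and at 50.9, 41.4, and 37.0 CPM against 33.7, 39.2, and 38.2 CPM in the descending libraries. Groups overlapped in both segments, and the log2 fold change over both was −0.20 ± 0.150 (interval −0.52 to 0.12, edgeR adjusted p = 0.625). *Cacnb2*, an accessory β-subunit, had means of 13.4 ± 0.446 and 12.4 ± 3.17 CPM (SD, n = 3 each) in the ascending/arch and 16.5 ± 3.93 and 13.4 ± 5.58 CPM in the descending segment, GFPiSMC first. Its log2 fold change was −0.21 ± 0.230 (interval −0.70 to 0.29, edgeR adjusted p = 0.778). *Cacna1h* was at 1.76 to 2.57 CPM in GFPiSMC and 1.11 to 2.78 CPM in Tgfbr1/2iSMCKO, with a log2 fold change of −0.36 ± 0.281 (interval −0.97 to 0.25, edgeR adjusted p = 0.640), and its low counts give little precision.

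*Stim1*, the calcium sensor of the store, was high in the libraries of high GC score in both genotypes. It measured 7.59, 3.09, and 5.16 CPM in GFPiSMC and 7.21, 5.48, and 17.8 CPM in Tgfbr1/2iSMCKO ascending/arch libraries. The descending values were 29.8, 11.6, and 5.38 CPM against 11.2, 4.29, and 41.8 CPM. The 4 libraries of highest GC score had 11.6 to 41.8 CPM (median 23.8), and the other 8 had 3.09 to 11.2 CPM (median 5.43). Of the 8 smooth muscle markers, 5 were wholly higher in the same 4 libraries, namely *Smtn*, *Lmod1*, *Myocd*, *Myh11*, and *Cnn1*. The share of all genes wholly higher in these 4 libraries was not counted, so these 5 markers and *Stim1* cannot be set against it. *Smtn* was at 503 to 849.9 against 251 to 389 CPM in the other 8, and *Myh11*, whose promoter drives the Cre, at 3095 to 3931 against 2275 to 3035 CPM. *Acta2* overlapped (20540 to 30720 against 27240 to 31930 CPM), as did *Tagln* and *Itga8*. The part of the GC score in the *Stim1* values was not tested apart from these ranges and the fits below.

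The log2 fold change of *Stim1* over both segments was 0.62 ± 0.545 (interval −0.56 to 1.79, edgeR adjusted p = 0.696), 0.28 with the GC score as a covariate (adjusted p = 0.670), and −0.358 without Tgfbr1/2iSMCKO replicate 3. In the descending segment it was 0.29 ± 0.781 (edgeR adjusted p = 0.977), −1.025 without that animal, and −0.117 without GFPiSMC replicate 3. Its partner *Orai1*, the surface channel, measured 4.46 to 8.10 and 3.59 to 4.99 CPM in the ascending/arch, GFPiSMC first, and 3.34 to 7.10 and 2.02 to 4.66 CPM in the descending segment. The *Orai1* estimate was −0.45 ± 0.279 (interval −1.05 to 0.15, edgeR adjusted p = 0.510) with groups overlapping in both segments, and −0.085 without GFPiSMC replicate 1. Per kilobase *Stim1* ranged from 0.145 to 4.57 times *Orai1*, and the median was 0.352.

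**Figure D3:**
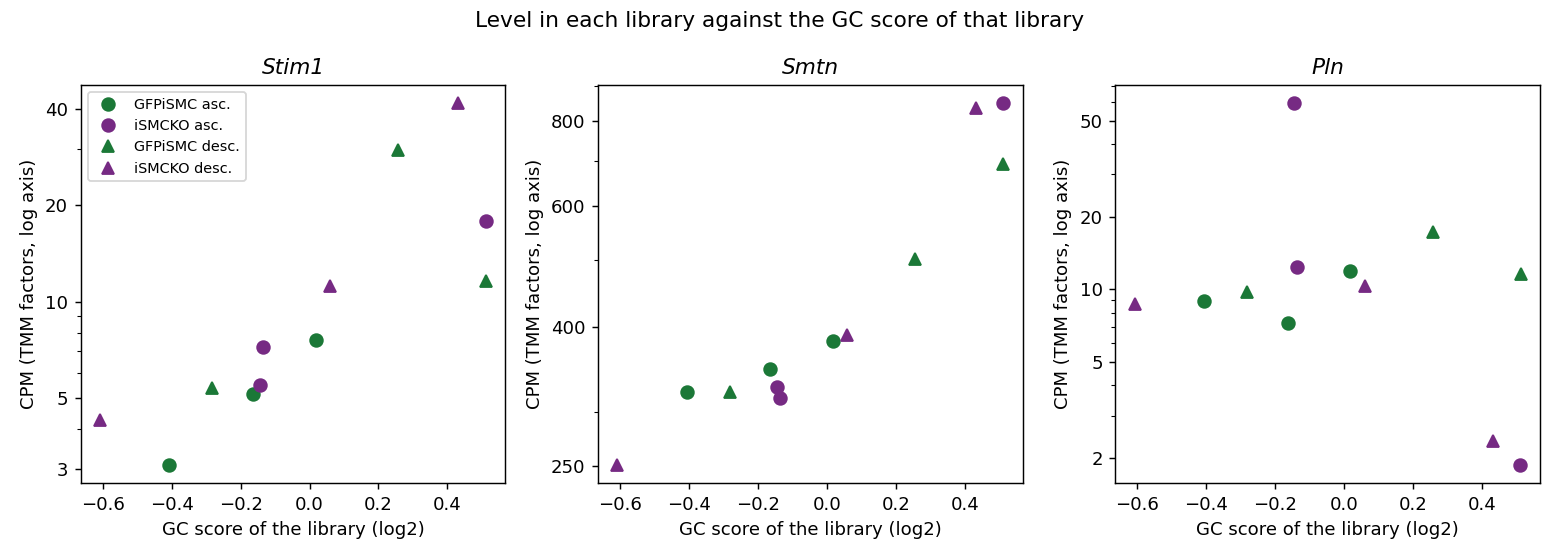
CPM (log axis) of *Stim1*, *Smtn*, and *Pln* in each library against the GC score of the library (log2), with color for genotype (green GFPiSMC, purple Tgfbr1/2iSMCKO) and symbols for segment (circles ascending/arch, triangles descending). *Stim1* and *Smtn* are high in the 4 libraries with scores of 0.257 to 0.512, whereas *Pln* is lowest in the libraries at 0.511 and 0.432 and highest in a library at −0.145.

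*Atp2b1*, which expels calcium across the plasma membrane, was at 61.2, 72.3, and 78.1 CPM in GFPiSMC and 75.9, 73.1, and 100.1 CPM in Tgfbr1/2iSMCKO ascending/arch libraries. In the descending segment it was at 76.3, 87.1, and 49.6 CPM against 47.5, 64.6, and 88.1 CPM, with overlap in both segments. Its log2 fold change was 0.07 ± 0.181 (interval −0.32 to 0.46, edgeR adjusted p = 0.919), and −0.140 without Tgfbr1/2iSMCKO replicate 3, whose libraries were the highest in each segment.

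Within segments, no member passed in edgeR either. In the ascending/arch 1.41% of genes tested passed, and *Ryr2* was the only member with an unadjusted p under 0.05, as 11.4% of genes had. In the descending segment 1.72% passed, and *Itpr1* was the only member with an unadjusted p under 0.05, as 10.7% of genes had. DESeq2 passed no member in either segment. The genotype effect was then compared between segments. By edgeR 0 of 22320 genes (0.0%) differed, with 659 (2.95%) at an unadjusted p under 0.05, and DESeq2 called 8, none of them a member. No member had an unadjusted p under 0.05 for this difference by either tool. The largest estimate was that of *Pln*, −2.24 ± 1.22, with an interval from −4.89 to 0.41.

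The segments were compared within each genotype to ask whether the descending aorta differs from the ascending/arch. No member passed in edgeR, where 0.376% of genes passed in GFPiSMC and 0.112% in Tgfbr1/2iSMCKO, and none had an unadjusted p under 0.05, where 5.98% and 3.68% of genes had. DESeq2 passed none. In GFPiSMC, *Itpr1* was higher in all 3 descending than in all 3 ascending/arch libraries, by 0.25 ± 0.125 on the log2 scale (interval −0.02 to 0.52, edgeR adjusted p = 0.883), and 5.19% of genes were wholly higher there. In Tgfbr1/2iSMCKO the same difference was 0.03 ± 0.125 (interval −0.24 to 0.30). With TMM factors, though not by library total alone, *Atp2a2* was wholly lower in the descending libraries of Tgfbr1/2iSMCKO, where 4.08% of genes were. It was the only such member, by −0.07 ± 0.110 (interval −0.31 to 0.17). The widest differences were again those of *Stim1* in GFPiSMC, 1.56 ± 0.804 (interval −0.18 to 3.31), and *Pln* in Tgfbr1/2iSMCKO, −1.78 ± 0.876 (interval −3.68 to 0.13).

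Close relatives of the members share their functions, so levels per kilobase were set against those of paralogues. *Atp2a2* made up 95.2% of the SERCA genes (91.7% to 97.7% over 12 libraries), *Itpr1* 96.6% of the IP3 receptors (95.3% to 98.4%), and *Ryr2* 85.9% of the ryanodine receptors (77.4% to 92.2%). For these families the member was the leading gene in each library. Elsewhere it was not. *Orai3* held 87.4% of the ORAI genes and *Orai1* 10.9% (3.0% to 28.8%), and *Cacnb3* held 56.2% of the β-subunits against 16.1% for *Cacnb2*. *Atp2b4* and *Atp2b1* held 53.0% and 44.6% of the plasma membrane pumps, *Stim2* and *Stim1* 62.4% and 37.6% of the STIM genes, and *Cacna1d* and *Cacna1c* 51.3% and 45.9% of the L-type pores counted here, with ranges over 12 libraries that overlap widely. By group, *Cacna1c* led in GFPiSMC descending libraries (53.3% to 63.2% against 34.2% to 43.2%). *Cacna1d* led in Tgfbr1/2iSMCKO ascending/arch libraries (59.7% to 65.1% against 30.5% to 36.9%). In the remaining groups the ranges of *Cacna1c* and *Cacna1d* overlapped. *Cacna1h* held 40.8% of the T-type pores, all of them at or below 0.323 CPM per kilobase. These shares rest on the length of merged exons, which for *Stim1* is 10371 bases against 4362 for its longest transcript. They were not repeated with the longest transcript, so the order of genes close in share is not settled.

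Of these families, *Cacnb4*, a β-subunit described below with the other calcium genes, passed the genotype test, and none of the paralogues named above did. *Atp2b4* was at 1.29 (interval −0.16 to 2.74, edgeR adjusted p = 0.394) on the log2 scale, *Stim2* at −0.90 (interval −1.73 to −0.07, adjusted p = 0.255), and *Orai3* at 0.62 (interval −0.04 to 1.28, adjusted p = 0.357). *Slc8a1*, the sodium-calcium exchanger that works beside the plasma membrane pumps, had 0.94 (interval 0.06 to 1.83, adjusted p = 0.267). *Cacna1d* had 0.49 (interval 0.10 to 0.88, adjusted p = 0.178).

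**Figure D4:**
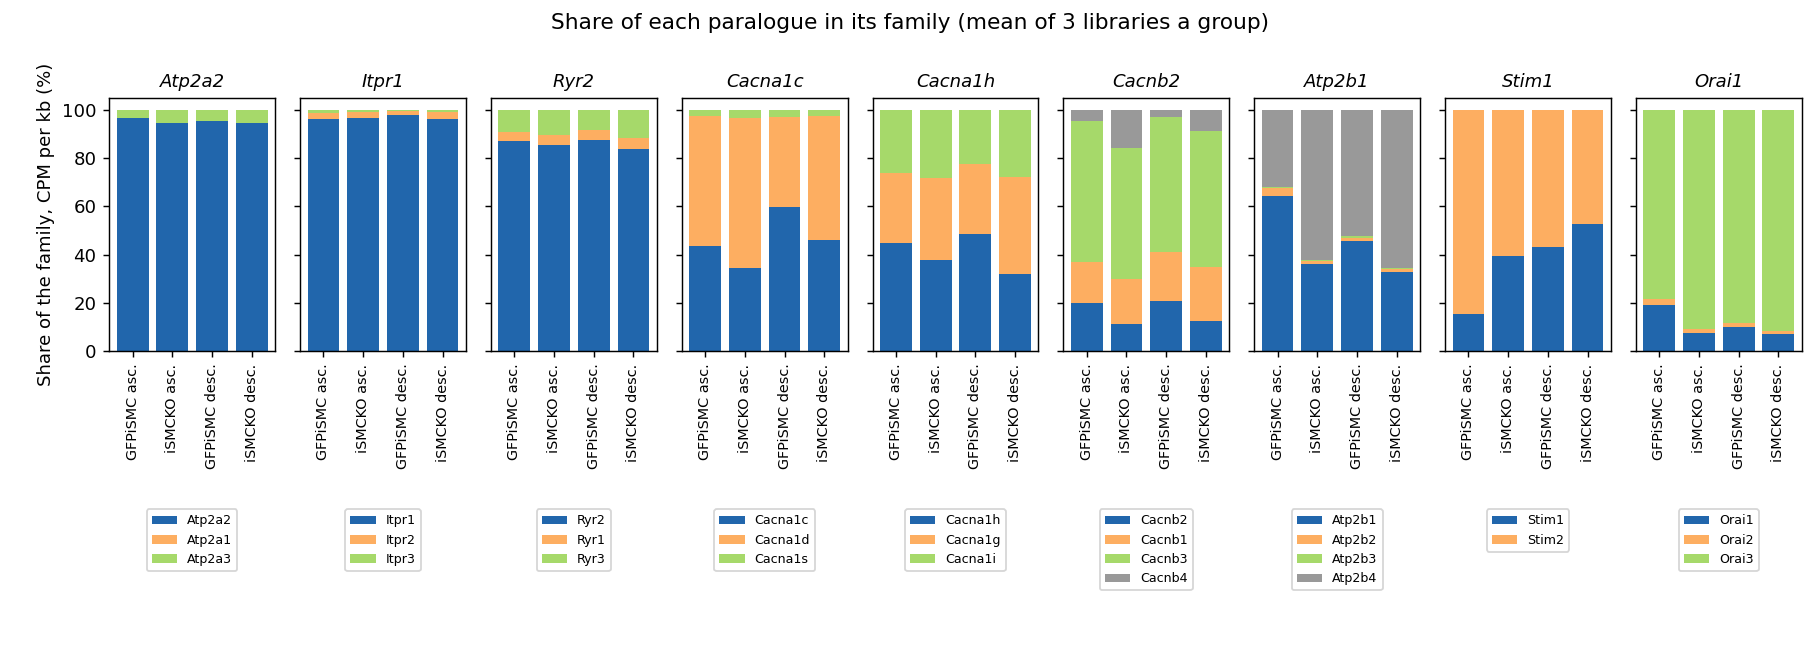
Mean share (%, stacked to 100) of each gene in its family by level per kilobase, for 3 libraries in each of the 4 groups of genotype and segment, with the member in blue. *Atp2a2*, *Itpr1*, and *Ryr2* take most of their families in all groups, whereas *Orai1*, at 10.9% over all libraries, is a small part of its own.

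The other calcium-handling genes were taken from a list of 82 by role, of which 77 were tested. *Sln*, *Atp2b3*, *Trpc5*, *Trpc6*, and *Trpv4* did not pass the filter, with at most 17 counts in a library. Over both segments 7 of the 77 were lower in Tgfbr1/2iSMCKO by edgeR, where 3.23% of all genes tested were lower, and 2 were higher, where 1.8% were. The median log2 fold change of the 77 was 0.07, against 0.04 over all genes.

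The largest falls were those of a gene listed with the calcium sensors and of a buffer of the store. *Rcan1*, a calcineurin regulator whose transcription responds to calcineurin, fell by 2.104 ± 0.268 on the log2 scale (edgeR adjusted p = 0.000334), with 48.0 to 138 CPM in GFPiSMC and 11.7 to 25.3 CPM in Tgfbr1/2iSMCKO, and *Rcan2* fell by 0.53 ± 0.0910 (adjusted p = 0.00342). The other 11 of the 13 genes listed in the sensor role, for calmodulin, CaMKII, calcineurin, and the channel *Ano1*, did not pass. *Casq1*, calsequestrin, which binds calcium in the store, fell by 1.25 ± 0.209 (edgeR adjusted p = 0.00267), from 135 to 309 CPM in controls to 69.4 to 109 CPM. *Calr*, calreticulin, fell by 0.78 ± 0.192 (adjusted p = 0.0314), and the other 4 genes tested for refill and buffering did not pass.

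Among entry, extrusion, and mitochondrial genes, 3 fell and 2 rose. *Cacna2d1*, the accessory subunit of voltage-gated channels that assists their transport to the surface, fell by 0.69 ± 0.162 (edgeR adjusted p = 0.0238), and *Cacnb4*, a β-subunit, rose by 2.12 ± 0.475 (adjusted p = 0.0187), from 0.844 to 3.30 CPM in controls to 1.31 to 18.6 CPM. Its lowest Tgfbr1/2iSMCKO value, in descending replicate 3, lay within the control range. These were 2 of 14 voltage-gated genes tested, the median of which was 0.29. *Pkd2*, polycystin-2, fell by 0.45 ± 0.116 (edgeR adjusted p = 0.0399) and was the only one of 10 other entry channels to pass. *Slc8a2*, a sodium-calcium exchanger, fell by 1.02 ± 0.266 (adjusted p = 0.0427), 1 of 8 extrusion genes. *Mcur1*, a regulator of mitochondrial uptake, rose by 0.75 ± 0.129 (edgeR adjusted p = 0.00301), 1 of 8 mitochondrial genes. No gene passed among the 7 of store-operated entry or the 11 of store release.

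*Rcan1*, *Casq1*, and *Mcur1* passed under all 16 alternatives and *Rcan2* under 15, with the exception of counts summed per animal. *Cacnb4* passed under 11, *Calr* under 10, *Cacna2d1* under 9, and *Pkd2* and *Slc8a2* under 5 each. When a single animal was left out, *Cacnb4* and *Calr* passed without Tgfbr1/2iSMCKO replicate 3 or GFPiSMC replicate 2, *Cacna2d1* without Tgfbr1/2iSMCKO replicate 2 or GFPiSMC replicate 1, *Pkd2* without GFPiSMC replicate 3, and *Slc8a2* without Tgfbr1/2iSMCKO replicate 2, and none of the 5 passed without any other animal. In the ascending/arch *Rcan1* was the gene of this list that passed, and in the descending segment *Rcan1*, *Casq1*, and *Mcur1* passed. None of the list passed between segments in either genotype.

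**Figure D5:**
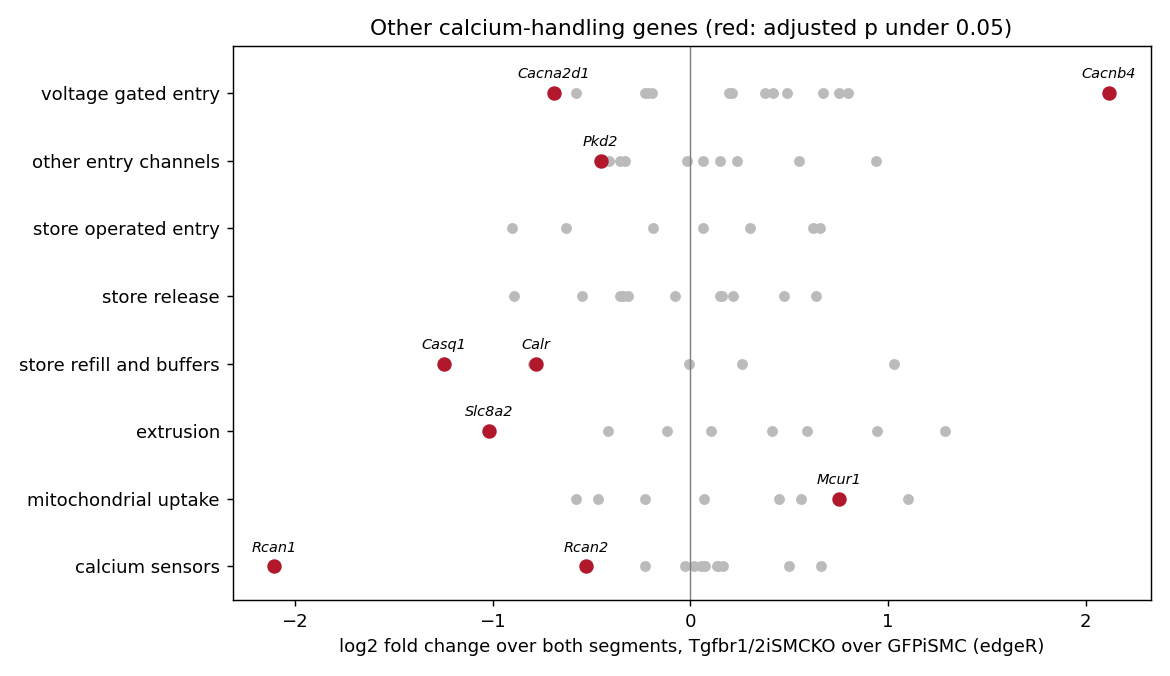
Log2 fold change over both segments (horizontal axis) of 77 other calcium-handling genes in 8 roles (vertical axis), with the 9 that passed an adjusted p of 0.05 in red. *Rcan1* at −2.104 and *Cacnb4* at 2.12 lie at the ends, and no red point falls in store release or store-operated entry.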

How the data were processed

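GFP-positive SMCs were sorted from the ascending/arch and descending thoracic aorta of GFPiSMC and Tgfbr1/2iSMCKO mice, which gave 12 libraries in 4 groups. The replicate numbers were read as 3 mice of each genotype. The authors trimmed reads with Trim Galore, aligned them to GRCm38 with HISAT2, and counted GENCODE gene models with StringTie, and the deposited values are whole-number counts per gene without normalization between libraries. Strand use in counting is not given in the sources used here. Symbols, coordinates, and transcript sequences came from a later GENCODE release on the same build, which matched 52403 of the 52636 genes. Libraries were grouped by the genotype and segment in their labels.

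Counts were tested with edgeR 4.0.16 in R 4.3.3 (filterByExpr on the 4 groups, TMM factors, quasi-likelihood F test). The genotype effect over both segments was fitted with segment as a covariate, and all other contrasts came from a fit of 4 group means. P values were adjusted by Benjamini-Hochberg over 22320 genes, and a gene passed with an adjusted p under 0.05. Errors of log2 fold changes are SEs, and other errors are SDs. The common biological coefficient of variation was 0.442. An exact permutation test of 3 animals against 3 cannot give a two-sided p below 0.1, so p values come from the fit across all genes. Where several libraries of an animal enter a fit they were treated as separate samples, and p values measure the spread between these libraries. Levels of different genes were compared only as CPM per kilobase of merged exons.

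Alternatives were DESeq2 1.42.0, limma-voom (limma 3.58.1) with a random effect for each animal, RLE factors or none, a filter that kept all genes with more than 1 count or those with a mean of 50 or more, the replicate number as a block, sums of counts per animal, fits of a single segment or genotype, and the omission of each animal. A GC score as covariate and the omission of the 4 libraries of highest score were added after seeing the data. The 10 genes, the lists of other calcium-handling genes and of markers, and the rule for naming genes (all members, the other calcium-handling genes that passed, and the closest paralogues) were chosen with earlier results of these data known. Scripts were tested on simulated counts. Plots were made in Python 3.11.15 (matplotlib 3.10.9).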

Additional observations from a re-analysis of the deposited data

How the results depend on the processing

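The number of the 10 genes that passed over both segments was 0 with edgeR, 1 with DESeq2 (*Itpr1*), 1 with a mean of at least 50 counts (*Itpr1*), 2 with the GC score as a covariate (*Itpr1* and *Atp2a2*), and 0 to 1 with an animal left out (*Ryr2* without GFPiSMC replicate 3), and in the descending segment it was 1 with the GC score as a covariate (*Itpr1*). It was 0 under all other alternatives run, in all 6 comparisons. The 9 other calcium-handling genes became 4 with counts summed per animal, 16 with the GC score as a covariate, and 4 to 7 with an animal left out. Over both segments the estimate of *Pln* (0.27) turned to −0.470 with limma-voom and −0.292 with the replicate block, and ranged from −0.705 to 0.837 with an animal left out. Such ranges were −0.140 to 0.204 for *Atp2b1* and −0.358 to 1.243 for *Stim1*, and within segments −0.393 to 1.920 for *Pln* in the ascending/arch and −1.025 to 1.167 for *Stim1* in the descending segment. There *Stim1* (0.29) turned to −0.142 with the replicate block, and *Ryr2* (−0.46) to 0.352 without the 4 libraries of highest GC score. The difference of the genotype effect between segments for *Stim1* (−0.66) turned to 0.253 with the GC score as a covariate and 0.239 without those 4 libraries. The cause was not tested.

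Over all genes, DESeq2 called 2030 over both segments (edgeR 1123), 909 in the ascending/arch (315), 919 in the descending segment (385), 8 for the difference (0), and 284 (84) and 164 (25) between segments in GFPiSMC and Tgfbr1/2iSMCKO. With the GC score as a covariate 2494, 799, and 1077 passed for the 3 genotype comparisons and 74 between segments in Tgfbr1/2iSMCKO. Without the 4 libraries, 667 passed over both segments, 94 in the descending segment, 10 for the difference, and 23 and 10 between segments. Counts summed per animal gave 451. The descending segment fitted alone gave 150, and Tgfbr1/2iSMCKO fitted alone gave 4 between segments. No filter beyond 1 count gave 1 for the difference and 45 between segments in Tgfbr1/2iSMCKO, where limma-voom gave 49. With an animal left out the ranges were 622 to 1066, 128 to 240, 136 to 330, 0 to 3, 6 to 86, and 5 to 19. With library size only, calls over both segments were 505 lower and 699 higher, against 721 and 402 with TMM factors, as the median of all genes moved from 0.04 to 0.16.

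Numbers shared across genotypes did not pair the libraries: correlations of deviations from group means over 9210 genes were −0.527 to 0.216, and −0.242 to 0.661 for numbers within a genotype. The replicate block passed 994 genes over both segments and 0 members, and *Pkd2* and *Slc8a2* no longer passed (adjusted p = 0.0710 and 0.0663, edgeR).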
